A study of Mus musculus with 2 samples.

Results

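The genes described here encode the membrane skeleton and blood group proteins of the red cell, measured in whole mouse spleen. They were taken by symbol from a gene table of the whole spleen transcriptome, and all 9 listed genes were found among its 22216 rows. The 8 genes described here are Slc4a1, Ank1, Epb4-2, Add2, Rhd, Rhag, Kel and Ermap. Epb4-2 is an older symbol of Epb42.

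Spleen RNA of the NOD.L7 genotype was compared with spleen RNA of the NOD.g7 genotype by RNA sequencing. Both are mice of the non-obese diabetic (NOD) background, an inbred strain that develops autoimmune diabetes. Each genotype was 1 library from the pooled spleens of 3 mice, and the labels give no age or treatment. The series title calls the mice NOD.Lc7 and NOD, and the table heads its columns NOD.LC7 and NOD. Values under the LC7 heading were read as those of NOD.L7 mice, and values under the plain NOD heading as those of NOD.g7 mice. None of these suffixes is explained in the labels, so the genetic difference between the groups is not described here.

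The red cell carries a hexagonal net of spectrin tetramers under its membrane. The net is tied to the lipid bilayer at ankyrin complexes, where ankyrin holds the anion exchanger band 3 together with protein 4.2 and the Rh proteins, and at junctional complexes, where adducin, protein 4.1, dematin and short actin filaments meet. Loss of spectrin, ankyrin, band 3 or protein 4.2 gives fragile, rounded cells, as in hereditary spherocytosis. These transcripts are made during terminal erythroid differentiation. The mouse spleen, unlike the adult human spleen, keeps some red cell production in its red pulp, and it also holds circulating blood. In whole tissue, fewer erythroid cells and less of a transcript per cell cannot be told apart.

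All 8 genes were lower in the NOD.L7 library than in the NOD.g7 library. Their RPKM values (sequence coverage per kilobase of gene, scaled to the size of the library) ran from 0.358 to 3.97 in NOD.L7, against 1.69 to 22.1 in NOD.g7. The median over the 8 genes was 1.13 RPKM in NOD.L7 and 2.85 RPKM in NOD.g7, and their RPKM values summed to 11.5 in NOD.L7 and 44.9 in NOD.g7. The reduction was unequal among the genes. Epb4-2 was 6.71-fold lower and Slc4a1 5.58-fold lower, while Rhag was 1.81-fold lower.

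**Figure D1:**
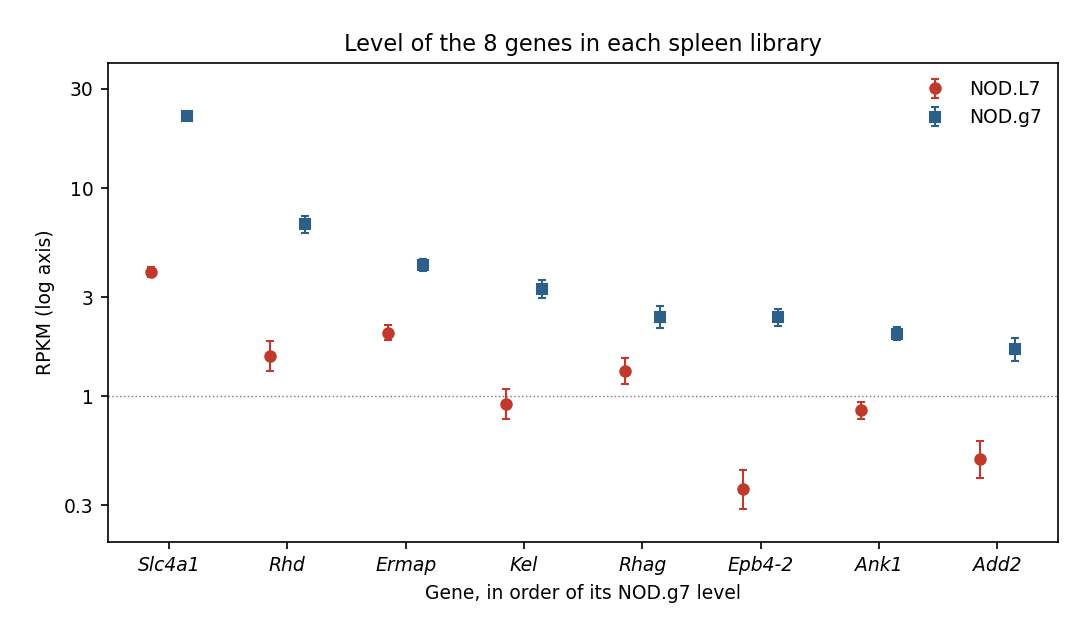
RPKM of each of the 8 genes (log axis) in the NOD.L7 library (circles) and the NOD.g7 library (squares), 1 library each. Bars are 95% counting intervals and leave out variation between mice, and the dotted line is an RPKM of 1. Every NOD.L7 value lies below its NOD.g7 value, and the intervals of the same gene do not overlap.

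There were no replicates, so the data give no p-value, and each difference holds for this pair of libraries. The counting intervals rest on a depth of 12.1 Gb of mapped sequence in NOD.L7 and 9.13 Gb in NOD.g7, read from the steps of the RPKM values. They take 200 bases as 1 fragment and cover counting error only. A log2 ratio of NOD.L7 over NOD.g7 was also computed after adding 1 to each RPKM, which shrinks the change of low genes, for the 11141 genes that reached an RPKM of 1 in at least 1 library. Genes with a log2 ratio of 1 or more in size were called. Of those genes, 43.8% were lower in NOD.L7, 0.709% were called in either direction and 0.323% were called lower. All 8 genes passed the RPKM limit, but Ank1, Epb4-2, Add2 and Kel passed it through NOD.g7 alone, so a lower value in NOD.L7 was built into their passing. Of the 8 genes, 4 were called, all lower in NOD.L7. By the plain ratio, 7 of the 8 were at or below 0.5, all but Rhag, as were 0.718% of the genes that passed the limit. The median log2 ratio was -1.0004 over the 8 genes and 0.02 over all genes that passed the limit. The genes were chosen with earlier results of these data known, so these counts describe them and test nothing.

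The genes lie on 6 chromosomes and none is on chromosome 7. In the mm9 coordinates of the table, Slc4a1 is on chromosome 11 (102210134 to 102226595) and Ank1 on chromosome 8 (24085354 to 24260968). Epb4-2 is on chromosome 2 (120843953 to 120862491) and Rhag on chromosome 17 (40948098 to 40977703). Chromosome 6 holds Kel (41636329 to 41654324) and Add2 (86028078 to 86069549), and chromosome 4 holds Ermap (118848062 to 118862616) and Rhd (134420451 to 134452087).

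Promoter sequence is shown because these genes differed in the same direction, and because erythroid promoters are known for motifs of the GATA and Krüppel-like factors. Of the 8 genes, 6 had a promoter entry in the RefSeq table for build GRCm38.p6, namely Epb4-2, Add2, Rhd, Rhag, Kel and Ermap. The 250 bases before the annotated start were searched on both strands for the motifs AGATAA and TGATAA (read by GATA factors) and CCNCNCCC (a Krüppel-like factor motif). AGATAA or TGATAA was present in 5 of the 6 windows, all but that of Add2, and in 16.6% of the 32851 windows in the RefSeq table. CCNCNCCC was present in 1 of the 6, that of Add2, where 2 matches overlapped, and in 45.9% of all windows. On chromosome 6, the Kel row ended at 41654324 in mm9 and its window began at 41704326 in GRCm38.p6. The Add2 row began at 86028078 in mm9 and its window ended at 86028680 in GRCm38.p6. The offset between builds thus differed between these genes, and the rows were not converted to GRCm38.p6. The Add2 window may therefore lie before a start other than that of the row measured, so its motifs may not describe that transcript. In the lines below, read 5′ to 3′ on the strand of the gene, capitals mark these matches. The whole windows are those of Kel (chr6:41704326-41704575, minus strand), with AGATAA at -56 to -51 and TGATAA at -19 to -14 from the start, and of Rhd (chr4:134864286-134864535, plus strand), with AGATAA at -43 to -38. They are followed by 30 bases around the match of Rhag (chr17:40811106-40811135, plus strand, at -31 to -26), Ermap (chr4:119190045-119190074, minus strand, at -67 to -62) and Epb4-2 (chr2:121037086-121037115, minus strand, at -226 to -221), each of which reads on the opposite strand of the gene.
Kel: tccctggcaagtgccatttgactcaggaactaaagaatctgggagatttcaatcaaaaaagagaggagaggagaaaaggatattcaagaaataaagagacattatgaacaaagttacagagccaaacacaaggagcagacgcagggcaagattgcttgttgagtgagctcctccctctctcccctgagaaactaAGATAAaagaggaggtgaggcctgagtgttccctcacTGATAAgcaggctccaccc
Rhd: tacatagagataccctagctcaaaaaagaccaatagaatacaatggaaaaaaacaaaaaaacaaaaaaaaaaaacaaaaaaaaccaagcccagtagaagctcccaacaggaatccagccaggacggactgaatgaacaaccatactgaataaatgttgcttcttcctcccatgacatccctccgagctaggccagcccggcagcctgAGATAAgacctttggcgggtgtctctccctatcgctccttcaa
Rhag: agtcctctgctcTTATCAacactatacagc
Ermap: tgaacgctcgctTTATCAggggtgggcaga
Epb4-2: gtctctatttccTTATCTcgttcaaacaga
The matches of Kel, Rhd, Rhag and Ermap lay within 70 bases of the annotated start. A match is a description of these letters and not a bound site. Rhag, with the smallest reduction of the 8 genes, and Kel and Rhd, with larger ones, all held a match to AGATAA or TGATAA. Add2 was 3.38-fold lower in NOD.L7, but its window, which held neither, may not be that of the row measured. Whether a match goes with the size of a reduction was not tested.

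At the ankyrin complex, Slc4a1 encodes band 3, the chloride and bicarbonate exchanger and most abundant integral protein of the red cell membrane. Slc4a1 was at 3.97 RPKM in NOD.L7 and 22.1 RPKM in NOD.g7, with a fold of NOD.L7 over NOD.g7 of 0.179 (95% counting interval 0.168 to 0.191). Of the 11141 genes it had the second lowest log2 ratio, at -2.22. It was the most abundant of the 8 genes in each library and made up 34.4% of their summed RPKM in NOD.L7 and 49.3% in NOD.g7. In NOD.g7 it lay above 71.1% of the genes that passed the limit, and in NOD.L7 above 20.7% of them.

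Epb4-2 encodes protein 4.2, a transglutaminase relative without enzyme activity that binds band 3 and ankyrin. It was at 0.358 RPKM in NOD.L7 and 2.40 RPKM in NOD.g7, a fold of 0.149 (0.117 to 0.187). This was the largest reduction of the 8 genes by the plain ratio, though its interval overlapped that of Slc4a1. The log2 ratio, with 1 added to each value, was -1.33 and placed Epb4-2 behind Slc4a1 and Rhd.

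Ank1 encodes erythroid ankyrin, the linker between band 3 and spectrin. Ank1 was at 0.859 RPKM in NOD.L7 and 2.004 RPKM in NOD.g7, a fold of 0.428 (0.379 to 0.483), with a log2 ratio of -0.69 that was not called. The table row of the microRNA gene Mir486 lies inside Ank1 and was listed at 0 in both libraries. There was no separate library of small RNA, so this value does not show that the microRNA was absent. Ank1 also has transcripts of other tissues, such as a short muscle form, and the table does not separate them.

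The Rh proteins sit in the same complex. Rhag, the Rh-associated glycoprotein, is a membrane channel for ammonia and is needed for the Rh proteins to reach the cell surface in human red cells. Rhag was at 1.33 RPKM in NOD.L7 and 2.40 RPKM in NOD.g7, a fold of 0.554 (0.455 to 0.669), and its log2 ratio of -0.55 was the smallest in size of the 8 genes. Rhd, the mouse gene for the Rh blood group polypeptide, was at 1.56 RPKM in NOD.L7 and 6.71 RPKM in NOD.g7, a fold of 0.233 (0.192 to 0.281), and its log2 ratio was -1.59. Only 2 of the 11141 genes had a lower log2 ratio than Rhd, and Slc4a1 was 1 of them. Rhag and Rhd are related in sequence, but the treatment of reads with several matches is not given in the sources used here.

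At the junctional complex, Add2 encodes beta adducin, which caps actin filaments and recruits spectrin to them. Add2 was at 0.498 RPKM in NOD.L7 and 1.69 RPKM in NOD.g7, a fold of 0.296 (0.230 to 0.377). It was the lowest of the 8 genes in NOD.g7, and its log2 ratio of -0.84 was not called.

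Of the blood group proteins outside the Rh pair, Kel encodes the Kell antigen, a membrane endopeptidase that activates endothelin-3. Kel was at 0.921 RPKM in NOD.L7 and 3.29 RPKM in NOD.g7, a fold of 0.280 (0.229 to 0.341), and was called at -1.16. Ermap, a butyrophilin-like membrane protein that carries the Scianna blood group in humans, was at 2.02 RPKM in NOD.L7 and 4.26 RPKM in NOD.g7. Its fold was 0.474 (0.426 to 0.528), and its log2 ratio of -0.80 was not called. Ermap was the gene with the second highest level of the 8 in NOD.L7, and Rhd was second in NOD.g7.

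The order of levels therefore differed between the libraries. Below Slc4a1, the order in NOD.L7 was Ermap, Rhd, Rhag, Kel, Ank1, Add2 and Epb4-2. The NOD.L7 counting intervals of Rhd and Rhag overlapped, as did those of Kel and Ank1, and those of Add2 and Epb4-2. In NOD.g7 the order below Slc4a1 was Rhd, Ermap, Kel, Rhag, Epb4-2, Ank1 and Add2, and the intervals overlapped between Rhag and Epb4-2, between Rhag and Ank1, and between Ank1 and Add2. Rhag and Epb4-2 were level in NOD.g7, both at 2.40 RPKM, while in NOD.L7 Rhag was at 1.33 RPKM and Epb4-2 at 0.358 RPKM.

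Transcripts of proteins that work together, or of relatives, were compared within each library, for 7 pairs chosen after the values were seen. These are ratios of RNA in whole spleen, from all its cells, and not of proteins in the red cell membrane. The ratio of Slc4a1 to Epb4-2 was 11.1 in NOD.L7 and 9.21 in NOD.g7, a quotient of 1.20 whose counting interval (0.949 to 1.52) included 1. The ratio of Slc4a1 to Ank1 was 4.62 in NOD.L7 and 11.0 in NOD.g7, a quotient of 0.418 (0.365 to 0.479). Rhd was 1.17 times the level of Rhag in NOD.L7 and 2.79 times in NOD.g7, a quotient of 0.421 (0.323 to 0.549). In NOD.L7, Slc4a1 was thus lower relative to Ank1, and Rhd lower relative to Rhag, by more than counting error. Kel is linked in the membrane to the transporter-like protein made by Xk, and the ratio of Kel to Xk was 0.340 in NOD.L7 and 1.16 in NOD.g7, a quotient of 0.294 (0.236 to 0.366). The quotient was 0.324 (0.265 to 0.395) for Slc4a1 to Rhag and 0.337 (0.265 to 0.428) for Add2 to Add1.

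**Figure D2:**
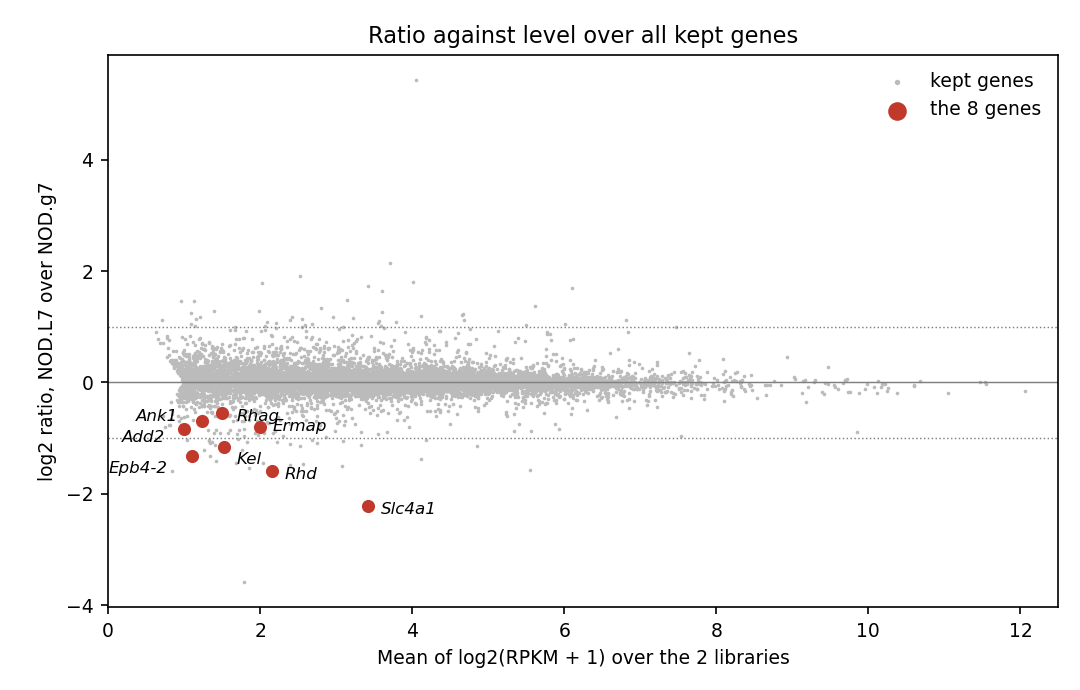
The log2 ratio of NOD.L7 over NOD.g7 (with 1 added to each RPKM) against the mean log2(RPKM + 1) of both libraries, for all 11141 genes at an RPKM of 1 or more in either (grey) and the 8 genes (red). Dotted lines mark ratios of -1 and 1. All 8 genes lie below 0, from -2.22 for Slc4a1 to -0.55 for Rhag, at the lower edge of the cloud.

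The other genes of the red cell membrane were described from a list of 29, all of which had a row. Of these, 26 passed the RPKM limit, 19 were lower in NOD.L7 and 7 higher, and 3 were called, all lower. Their median log2 ratio was -0.09, and 19 of the 26 lay within 0.25 of 0. Among the called genes were Epb4-9 and Cldn13. Both passed the limit through NOD.g7 alone, so a lower value in NOD.L7 was built into their passing. Epb4-9 encodes dematin, the actin-bundling protein of the junctional complex, and was at 0.609 RPKM in NOD.L7 and 3.02 RPKM in NOD.g7, a log2 ratio of -1.32. Cldn13, a claudin gene of mouse erythroid cells, was at 0.874 RPKM in NOD.L7 and 3.41 RPKM in NOD.g7. Spnb1, the erythroid beta spectrin gene, came next without a call, at 1.03 RPKM in NOD.L7 and 2.82 RPKM in NOD.g7, a fold of 0.365 (0.332 to 0.401). The water channel gene Aqp1 had a log2 ratio of -0.88. Tmod1, whose protein caps the slow-growing ends of the short actin filaments, did not pass the limit, at 0.244 RPKM in NOD.L7 and 0.992 RPKM in NOD.g7, and neither did Icam4 and Tspo2.

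Other genes of the same membrane had nearly equal values, and the 4 named next were chosen for this after their values were seen. The protein 4.1 gene Epb4-1 was at 39.6 RPKM in NOD.L7 and 38.9 RPKM in NOD.g7. The glycophorin C gene Gypc was at 14.5 RPKM in NOD.L7 and 15.2 RPKM in NOD.g7, and Stom, which encodes stomatin, was at 14.7 and 14.6 RPKM in NOD.L7 and NOD.g7. Cd47, a signal against uptake by macrophages, was at 86.6 RPKM in NOD.L7 and 94.3 RPKM in NOD.g7. These genes are expressed in many leukocytes as well. By level, the 14 list genes at 10 RPKM or more in NOD.g7 had log2 ratios of -0.28 to 0.16, and the 3 called genes were among the 12 below 10 RPKM. The limit of 10 RPKM was chosen after the values were seen.

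Of 33 other genes that determine blood groups, 32 had a row, and 7 of these are on the membrane list as well. Of the 24 that passed the RPKM limit, 16 were lower in NOD.L7 and 8 higher, with a median log2 ratio of -0.06, and 1 was called, lower in NOD.L7. Xk, the Kx antigen gene, was at 2.71 RPKM in NOD.L7 and 2.85 RPKM in NOD.g7, a fold of 0.952 (0.859 to 1.06), beside the fold of 0.280 for Kel. The urea transporter gene Slc14a1, which carries the Kidd group in humans, was at 8.38 RPKM in NOD.L7 and 10.8 RPKM in NOD.g7. Klf1, the erythroid Krüppel-like factor listed because its variants alter blood group antigens in humans, was at 2.37 RPKM in NOD.L7 and 5.19 RPKM in NOD.g7 (log2 ratio -0.88). Cd55, the complement regulator that carries the Cromer group in humans and is abundant on B cells, was at 44.6 RPKM in NOD.L7 and 80.5 RPKM in NOD.g7 (-0.84). In the other direction, Gcnt2, the enzyme that branches the I antigen, was at 7.34 RPKM in NOD.L7 and 3.41 RPKM in NOD.g7 (0.92).

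The relatives of the listed genes that other cells use served as a comparison in the same libraries. Of 29 listed, 27 had a row and 13 passed the RPKM limit, with 7 lower and 6 higher in NOD.L7, none called and a median log2 ratio of -0.03. Slc4a2, the anion exchanger of most tissues, was at 15.1 RPKM in NOD.L7 and 16.0 RPKM in NOD.g7. Slc4a1 was thus 0.263 times the level of Slc4a2 in NOD.L7 and 1.38 times in NOD.g7. Add1 was at 86.0 RPKM in NOD.L7 and 98.1 RPKM in NOD.g7, and Add3 at 79.9 RPKM in NOD.L7 and 97.3 RPKM in NOD.g7, with folds of 0.877 and 0.821 beside 0.296 for Add2. Adducin works as a tetramer of alpha with beta or gamma chains, encoded by Add1, Add2 and Add3.

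Among relatives of Epb4-2, the tissue transglutaminase gene Tgm2 was higher in NOD.L7, at 26.9 RPKM in NOD.L7 and 15.9 RPKM in NOD.g7. F13a1, the coagulation factor XIII chain made by macrophages, was at 11.7 RPKM in NOD.L7 and 10.3 RPKM in NOD.g7, and Tgm1 was at 3.35 and 2.52 RPKM in NOD.L7 and NOD.g7. The Kel relative Ece1, an endothelin-converting enzyme, was at 15.9 RPKM in NOD.L7 and 12.1 RPKM in NOD.g7, and Ece2 was at 1.28 RPKM in NOD.L7 and 1.08 RPKM in NOD.g7. Slc4a7 was at 10.4 and 12.3 RPKM, Slc4a8 at 3.23 and 2.62 RPKM and Slc4a11 at 0.836 and 1.03 RPKM in NOD.L7 and NOD.g7. The butyrophilin-like gene Btnl2 was at 1.25 RPKM in NOD.L7 and 1.73 RPKM in NOD.g7. The other ankyrins, Ank2 and Ank3, and the Rh glycoprotein genes of epithelia, Rhbg and Rhcg, were below the RPKM limit.

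**Figure D3:**
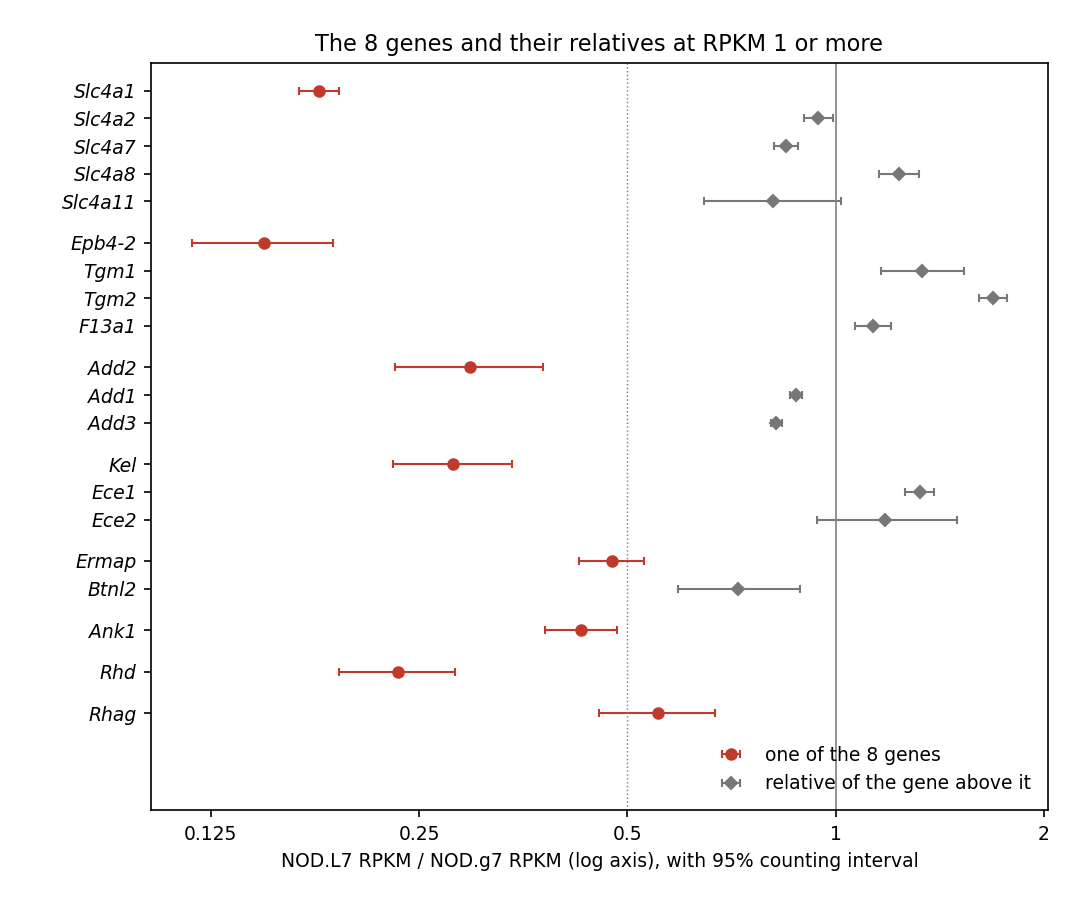
The plain ratio of NOD.L7 RPKM to NOD.g7 RPKM (log axis) for each of the 8 genes (red circles) and its relatives at an RPKM of 1 or more in either library (grey diamonds). Bars are 95% counting intervals, the solid line is an equal level and the dotted line a ratio of 0.5. The 8 genes lie between 0.149 and 0.554, and the relatives between 0.723 and 1.69.

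Most other erythroid genes on the lists were lower in the same library. Of 15 late erythroid genes that passed the RPKM limit, 14 were lower in NOD.L7 and 5 were called, with a median log2 ratio of -0.54. Among the called genes were Tmcc2, Hemgn, Trim10 and the carbonic anhydrase gene Car2, and erythroid genes were already known to be lower when this list was drawn up. Trim10, at 0.951 RPKM in NOD.L7 and 4.29 RPKM in NOD.g7, passed the limit through NOD.g7 alone. Car2 was at 18.6 RPKM in NOD.L7 and 41.9 RPKM in NOD.g7. Of 14 haem and globin genes 13 were lower and none was called, with a median of -0.31. Alas2, the first enzyme of erythroid haem synthesis, was at 29.0 RPKM in NOD.L7 and 53.9 RPKM in NOD.g7. Of 15 erythroid factors and receptors 12 were lower and none was called, with a median of -0.14. Gata1, the erythroid master regulator, was at 2.72 RPKM in NOD.L7 and 3.05 RPKM in NOD.g7, a fold of 0.889 (0.752 to 1.05). Tal1 was at 1.47 RPKM in NOD.L7 and 2.70 RPKM in NOD.g7 (log2 ratio -0.58). In the other direction, Kit was at 7.16 RPKM in NOD.L7 and 5.02 RPKM in NOD.g7 (0.44). Of the 11 erythroid markers, some of which are on these lists as well, 10 had a row and 9 passed the limit. All 9 were lower and 3 were called, with a median log2 ratio of -0.87, beside -1.0004 for the 8 genes. The fold intervals of Gata1 and of Epor (0.646 to 1.01) included 1. Differences between these lists were not tested.

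Lymphocyte markers of the spleen were high, with Cd79a at 526 RPKM in NOD.L7 and 598 RPKM in NOD.g7, and Cd3e at 152 RPKM in NOD.L7 and 150 RPKM in NOD.g7. Of the erythroid markers, the alpha-globin gene Hba-a1, which has a near-identical copy, was listed at 0 in both libraries. The summed level of the 10 with a row was 90.0 RPKM in NOD.L7 and 161.5 RPKM in NOD.g7. That sum holds no beta-globin. The beta-globin row Beta-s, from the haem and globin list, was at 680 RPKM in NOD.L7 and 1253 RPKM in NOD.g7. Its fold was 0.542 (0.534 to 0.551). Markers of other cells moved in the same comparison, and their part in the results above was not tested. All 5 NK cell markers were lower in NOD.L7, with a sum of 63.3 RPKM in NOD.L7 and 146.8 RPKM in NOD.g7, and Gzma and Ncr1 were called. All 5 B cell markers were lower without a call (1696 RPKM in NOD.L7 and 2033 RPKM in NOD.g7). All 6 red pulp macrophage markers, of the cells that take up old red cells, were higher, at 373 RPKM in NOD.L7 and 244 RPKM in NOD.g7, with Vcam1 and Cd163 called. All 4 monocyte markers (149 RPKM in NOD.L7 and 104 RPKM in NOD.g7, Cd14 called) and all 5 neutrophil markers (940 RPKM in NOD.L7 and 696 RPKM in NOD.g7, Cxcr2 called) were higher. Markers of T cells (601 RPKM in NOD.L7 and 592 RPKM in NOD.g7), of platelets (10.1 RPKM in NOD.L7 and 8.85 RPKM in NOD.g7) and of stroma and endothelium (72.5 RPKM in NOD.L7 and 73.8 RPKM in NOD.g7) had no called gene. Of the 5 T cell markers, 3 were lower and 2 higher in NOD.L7, so their near-equal sum joins opposite differences. Cd8a was at 31.7 RPKM in NOD.L7 and 53.7 RPKM in NOD.g7, a fold of 0.590 (0.571 to 0.611). Cd4 was at 136 RPKM in NOD.L7 and 106 RPKM in NOD.g7, a fold of 1.29 (1.26 to 1.32). Pecam1 alone, at 71.2 RPKM in NOD.L7 and 72.7 RPKM in NOD.g7, made up most of the stroma and endothelium sum. Col1a1, Col3a1 and Madcam1 were near 0 in both libraries.

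**Figure D4:**
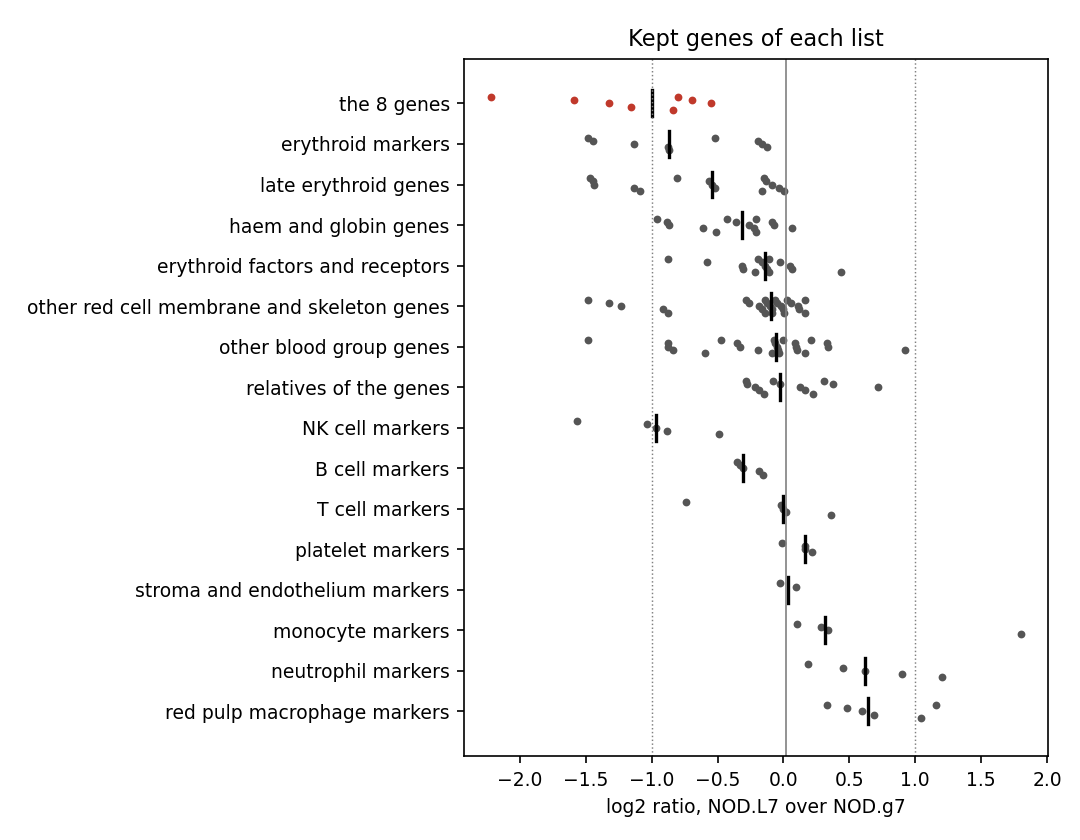
Log2 ratios of NOD.L7 over NOD.g7 (with 1 added to each RPKM) for the genes of each list at an RPKM of 1 or more in either library, 1 point per gene, with a black bar at the list's median. The grey line is the median of all such genes (0.02) and dotted lines mark -1 and 1. The 8 genes (red) have a median of -1.0004, the erythroid markers -0.87, the late erythroid genes -0.54, and the red pulp macrophage markers 0.64.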

How the data were processed

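The authors deposited 1 table with a gene symbol, coordinates and 1 RPKM value per library. CASAVA 1.8.2, SAMtools 0.1.18 and, as the genome, mm9 are listed per the submitters' processing notes. Libraries came from a TruSeq RNA kit after RNeasy extraction, per the labels' protocols. Not given in the sources used here: aligner settings, gene models, strandedness and the handling of multiply matching reads.

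Depth was found from single-exon genes shorter than 2500 bases whose table span equalled the only exon in GENCODE M21 (754 genes of any length). RPKM times length, scaled by the depth so found, was within 0.15 of a whole number of bases. This held for all 93 values used in NOD.L7 and all 91 used in NOD.g7. The depth was fitted to make these same values whole, so this describes the fit and is no separate check of it. RPKM values of this kind rest on covered bases, so count models were not used. Fragments were approximated from the GENCODE transcript with the genomic span closest to the table's. Intervals of a fold are 95% exact binomial (Clopper-Pearson), those of a level exact Poisson, and those of a quotient of ratios normal on the log scale. The calculations used Python 3.11.15, numpy 2.4.6, pandas 2.3.3 and scipy 1.17.1, and were tested on simulated data. Named genes were the listed genes, kept relatives, rows overlapping them, and per list the called genes and up to 4 others with the largest absolute log2 ratio. Of the 9 listed genes, 1 is not reported here and is left out of every value given for them, and some other genes the rule names enter counts only. Outside the rule, Epb4-1, Gypc, Stom, Cd47, Xk, Slc14a1, Gata1 and the genes named as below the limit, near 0 or at 0 were chosen after their values were seen. The genes and lists were chosen with earlier results of these data known. Alternatives were pseudocounts of 0.1 and 0.5, no RPKM limit or one of 5, median centring, a TMM factor on the RPKM values, a 1.5-fold call and leaving out Rhd and Rhag.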

Additional observations from a re-analysis of the deposited data

How the results depend on the processing

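With 1 library per genotype no replicate could be left out, and no setting shows how the values vary between mice. No paired analysis was possible because there is only 1 library for each group. Of the 8 genes, 7 were called with a pseudocount of 0.1, 7 with a 1.5-fold call and 7 with no pseudocount (a setting chosen after seeing the data), against 4, and 2 at a limit of 5 RPKM, which Slc4a1 and Rhd alone passed. Over the whole table the called genes were then 166 (1.49%), 325 (2.92%), 184 (1.65%) and 52 (0.618% of the 8421 genes at that limit). A pseudocount of 0.5 gave 124 (1.11%), and the main setting gave 79 (0.709%). The median log2 ratio of the 8 genes was -1.65 with a pseudocount of 0.1, -1.27 with 0.5, and -1.80 with none, against -1.0004. At the limit of 5 RPKM the value of -1.90 is the midpoint of Slc4a1 and Rhd only and is not comparable. Smaller pseudocounts shrink low genes less by construction. The median of the erythroid markers was -0.89 with a pseudocount of 0.1, -0.88 with 0.5 and -0.89 with none, against -0.87. With no RPKM limit it was -0.70. How near the median of the 8 genes lies to that of the erythroid markers thus depends on the setting. Rhag was not called under any of these settings, and Ank1, Add2 and Ermap were called with a pseudocount of 0.1 and with none, Add2 also with 0.5. Median centring and the TMM factor changed the sign of none of the 8 genes and of no list median, moved the median of all genes by less than 0.02, and left the count at 4. The share of called genes that were higher in NOD.L7 was 63.5% at the limit of 5 RPKM against 54.4%. Depth limits the lowest values, such as Epb4-2 in NOD.L7, which rests on about 89 fragments.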

Other observations

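Of the 8 genes, 3 had a table row at an RPKM of 1 or more within 5 kb, looked at after the values were seen, and none of these rows was called. Tmem50a, next to Rhd, was at 95.7 RPKM in NOD.L7 and 93.9 RPKM in NOD.g7. Ccndbp1, next to Epb4-2, was at 36.5 RPKM in NOD.L7 and 39.8 RPKM in NOD.g7. Zfp691, next to Ermap, was at 5.23 RPKM in NOD.L7 and 4.62 RPKM in NOD.g7. No row at an RPKM of 1 or more overlapped any of the 8 genes.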
